A study of Mus musculus with 2 samples.

Results

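The 9 genes described here are the CC chemokines that draw monocytes into tissue and the receptors that read them: the ligands Ccl2, Ccl7, Ccl8, Ccl12, Ccl3, Ccl4 and Ccl5 and the receptors Ccr1 and Ccr2. They were chosen by name from the 31253 genes listed for both libraries, and all 9 were detected in both. Cd45+ cells, that is leukocytes, were sorted on day 10 from tumors grown under the skin from the mouse melanoma line B16-F10, and their transcriptomes were read cell by cell. One library came from Irg1+/+ mice and one from Irg1-/- mice, which lack the gene in the whole animal, both on the C57BL/6J background and each with the tumors of 3 mice mixed before the sort. Irg1 is the older name of Acod1, the enzyme that makes itaconate from a Krebs cycle intermediate, and the study asked how its loss alters the immune cells of the tumor.

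Transcripts were counted as unique molecular identifiers (UMIs) on the BD Rhapsody platform, which captures single cells in microwells and tags the 3′ end of each mRNA. Levels are given as CPM, the UMIs of a gene per 1000000 UMIs summed over the same cells. The labels state 6000 sorted cells per library, and the tables held 6408 cells and 43617546 UMIs in the Irg1+/+ library and 5896 cells and 36432067 UMIs in the library labelled Irg1-/-. After removal of cells with 10% or more mitochondrial UMIs, 6284 and 5794 cells remained, with medians of 4528 and 4594.5 UMIs per cell, and 36 barcodes occurred in both libraries. With 1 pooled library per genotype there is no replicate, so a difference between libraries had no test. The intervals given are 95% intervals that cover counting error only, by the exact Poisson method for levels, Clopper-Pearson for shares of cells and the conditional binomial for ratios. The targeted gene did not separate the labels. Acod1 stood at 87.8 CPM in the Irg1+/+ library and 108 in the library labelled Irg1-/-, and at 101 and 137 in macrophage-like cells. In the compared cell types where it was highest in the Irg1+/+ library, it was lower in the library labelled Irg1-/- but not absent. It stood at 2559 and 1950 CPM in neutrophil-like cells (log2 ratio -0.39, -0.59 to -0.20) and 190 and 139 in classical monocyte-like cells (-0.45, -0.59 to -0.30). Among the latter, interferon-high cells stood at 335 and 168 and interferon-low cells at 67.4 and 87.4. The Vegfa+ state of macrophage-like cells was not lower, at 172.5 and 185 (0.10, -0.10 to 0.30). Which exons the mutant allele lacks is not given in the sources used here, and a 3′ tag outside the deleted part would not check the label. Every direction below therefore rests on the deposited labels.

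CC chemokines are small secreted proteins named for a pair of adjacent cysteines near their start. Ccl2, Ccl7, Ccl8 and Ccl12 are the monocyte chemoattractant proteins; Ccr2 is the main receptor for Ccl2, Ccl7 and Ccl12 and is needed for classical monocytes to leave the bone marrow. Ccl3, Ccl4 and Ccl5 are inflammatory chemokines made by activated myeloid cells, NK cells and T cells, with Ccr1 among the receptors of Ccl3 and Ccl5.

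The stretch that gives the family its name is shown for 6 of the ligands, as 30 bases of coding sequence read 5′ to 3′ on the coding strand with the codons of the 2 adjacent cysteines in capitals.
Ccl2: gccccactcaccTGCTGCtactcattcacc
Ccl7: aatgcatccacaTGCTGCtatgtcaagaaa
Ccl8: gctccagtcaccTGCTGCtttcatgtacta
Ccl12: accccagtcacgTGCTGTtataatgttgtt
Ccl4: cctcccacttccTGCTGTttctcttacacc
Ccl5: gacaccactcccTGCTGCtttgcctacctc

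Each window lies in exon 2 of a 3-exon transcript (GRCm38, GENCODE M21). For the monocyte chemoattractant ligands the windows are at chr11:82036494-82036523 (Ccl2), chr11:82046526-82046555 (Ccl7), chr11:82116044-82116073 (Ccl8) and chr11:82102622-82102651 (Ccl12), all on the + strand. That of Ccl5 is at chr11:83529230-83529259 on the - strand, and that of Ccl4 is at chr11:83663470-83663499 on the + strand. The members thus sat in 3 gene clusters. Ccl2, Ccl7, Ccl12 and Ccl8 lay within chr11:82035571-82116799, a span of 81.2 kb. Ccl5, Ccl3 and Ccl4 lay within chr11:83525778-83664683, and Ccr1 and Ccr2 lay within chr9:123962124-124113557. Despite their common origin the transcripts could be told apart: the longest exact run shared by the main transcripts of any 2 ligands was 23 bases (Ccl2 and Ccl7), and that of the receptors was 16 bases, against reads of 150 bases. The only annotated gene that overlapped a member was Gm17268, on the other strand from Ccl2, with 2 UMIs in both libraries together against 60763 for Ccl2.

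Cell types were called from marker lists that hold no chemokine or CC receptor gene. A cell took the type of its highest scoring list when at least 3 of that list's markers were detected, so each type is a range of scores and not a cluster. There were 1334 and 1145 macrophage-like cells, 841 and 1094 classical monocyte-like cells, 316 and 582 NK cell-like cells, 1389 and 784 T cell-like cells and 59 and 166 neutrophil-like cells in the Irg1+/+ library and the library labelled Irg1-/-. Of the 14 types, 11 had at least 20 cells in each library and are compared here; eosinophil-like, mast cell-like and melanocyte-like cells (69 and 11 of the last) are not. No type had a marker of another type among its 10 leading genes. The gate favors this outcome, since it takes the highest list, so it does not measure how pure a type is. Beside 4414 macrophage-like and classical monocyte-like cells, 637 cells with the required markers had these lists as their highest and next with a lead under 0.1, some of them outside the gates.

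**Figure D1:**
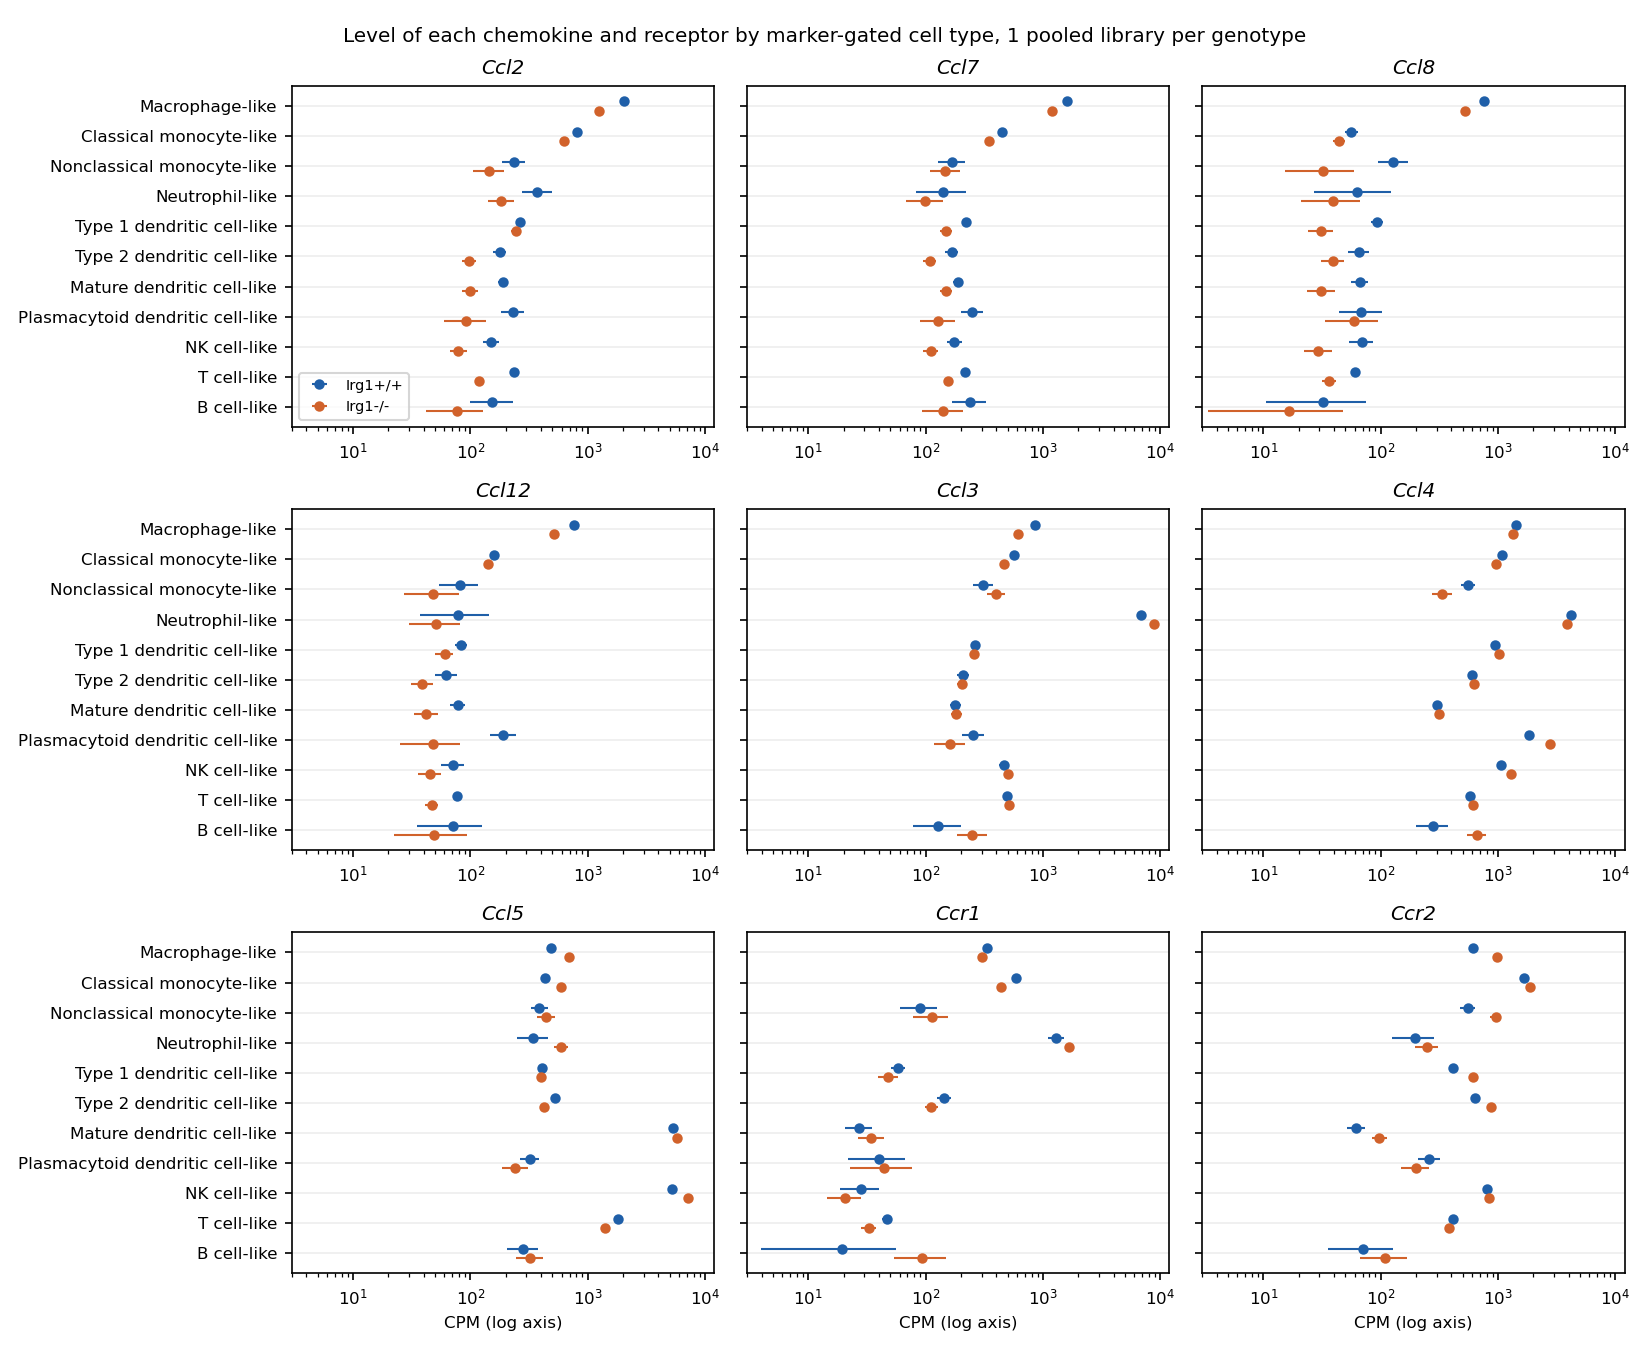
Level of each of the 9 genes (CPM, log axis) in the 11 cell types, in the Irg1+/+ library (blue) and the library labelled Irg1-/- (orange); bars are 95% Poisson intervals of counting error. Ccl2, Ccl7, Ccl8 and Ccl12 peak in macrophage-like cells, Ccl3, Ccl4 and Ccr1 in neutrophil-like cells, Ccl5 in NK cell-like and mature dendritic cell-like cells, and Ccr2 in classical monocyte-like cells.

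The 4 monocyte chemoattractant ligands were made mostly by macrophage-like cells, and their levels there were lower in the library labelled Irg1-/-. Ccl2, the best known ligand of Ccr2, stood in these cells at 2056 CPM (Irg1+/+ library) and 1241 CPM (library labelled Irg1-/-), a log2 ratio of -0.73 (interval -0.76 to -0.70). Macrophage-like cells held 71.4% and 62.3% of all Ccl2 UMIs of their libraries. Ccl7, a second ligand of Ccr2, stood at 1621 and 1201 CPM in the same cells, a log2 ratio of -0.43 (-0.46 to -0.40). Ccl12, a mouse ligand of Ccr2, stood at 759.5 and 517, a log2 ratio of -0.55 (-0.60 to -0.51). In both libraries macrophage-like cells lay above the other 10 compared types for each of these genes, with no overlap of the intervals.

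Ccl8 was the ligand most restricted to macrophage-like cells. They held 83.0% of its UMIs in the Irg1+/+ library and 83.4% in the library labelled Irg1-/-. Its level there was 755 and 518 CPM, a log2 ratio of -0.54 (-0.59 to -0.50). The next types were far below, with 128 CPM in nonclassical monocyte-like cells of the Irg1+/+ library and 58.6 in plasmacytoid dendritic cell-like cells of the library labelled Irg1-/-. Few cells carried most of it: the top 10% of macrophage-like cells (134 and 115 cells) held 83.9% and 86.9% of their Ccl8 UMIs, with up to 640 UMIs in 1 cell and medians of 1 and 0. Ccl7 was spread more widely, with 51.1% and 55.2% of its UMIs in the top 10% of cells, and the median cell held 7 and 4 UMIs of Ccl2.

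The same ligands in classical monocyte-like cells were lower than in macrophage-like cells in both libraries. Ccl2 stood at 806 and 634 CPM, a log2 ratio of -0.35 (-0.41 to -0.28), and Ccl7 at 451 and 351, a log2 ratio of -0.36 (-0.45 to -0.27). Ccl8 was at 55.9 and 44.2 CPM there and Ccl12 at 158 and 142. Summed over the 4 ligands, macrophage-like cells had 5191 and 3477 CPM, a log2 ratio of -0.58 (-0.60 to -0.56). The sum in classical monocyte-like cells was 1472 and 1170.4, a log2 ratio of -0.33 (-0.38 to -0.28).

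Types that should lack these ligands give the floor of the measurement. B cell-like cells held 154 and 76.3 CPM of it, from only 24 and 14 UMIs. NK cell-like cells held 151 and 78.9, a log2 ratio of -0.93 (-1.27 to -0.60), so the floor too was lower in the library labelled Irg1-/-. Macrophage-like cells stood 13.3-fold (8.95 to 20.8) and 16.3-fold (9.69 to 29.7) above B cell-like cells for Ccl2, and the monocyte level 5.23-fold and 8.30-fold above them. For Ccl8 in classical monocyte-like cells the ratio to B cell-like cells was 1.74 (0.736 to 5.41) and 2.70 (0.914 to 13.2), intervals that include 1. The number of Ccl7 UMIs per Ccl2 UMI was 0.788 and 0.967 in macrophage-like cells, 0.560 and 0.553 in classical monocyte-like cells, and 1.54 and 1.86 in B cell-like cells, the last from 24 and 14 UMIs of Ccl2. The part of free RNA in the differences between libraries was not tested. With the B cell-like level taken off, the log2 ratio of the summed ligands was -0.56 in macrophage-like cells and -0.14 in classical monocyte-like cells.

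Shares of cells were compared after each cell was thinned to 2000 UMIs, because macrophage-like cells were deeper (medians 7885.5 and 7673 UMIs) than B cell-like cells (2081 and 2229). The thinning left 1106 of 1334 and 993 of 1145 macrophage-like cells and 35 of 66 and 44 of 69 B cell-like cells. A UMI of Ccl2 was then found in 75.7% (73.0 to 78.2) and 66.7% (63.6 to 69.6) of macrophage-like cells, against 87.6% and 81.1% before thinning. The share was 51.3% and 44.2% in classical monocyte-like cells and, in B cell-like cells, 17.1% and 13.6%. For Ccl7 the share in classical monocyte-like cells, 36.2% and 30.3%, lay within the wide intervals of B cell-like cells (37.1%, 21.5 to 55.1, and 25.0%, 13.2 to 40.3) and above the 28.6% and 21.1% of NK cell-like cells. Its level in CPM there was 1.90-fold (1.37 to 2.70) and 2.47-fold (1.68 to 3.79) that of B cell-like cells. Among thinned macrophage-like cells Ccl7 was found in 77.8% of cells with Ccl2 and 47.6% of cells without it in the Irg1+/+ library, and in 70.4% and 42.0% in the library labelled Irg1-/-. In the Irg1+/+ library the same shares were 26.6% and 29.4% in NK cell-like cells and 38.9% and 24.6% in regulatory T cell-like cells. In the library labelled Irg1-/- they were 22% and 21% in NK cell-like cells and 23.3% and 20.6% in regulatory T cell-like cells. The difference between these types was not tested.

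**Figure D2:**
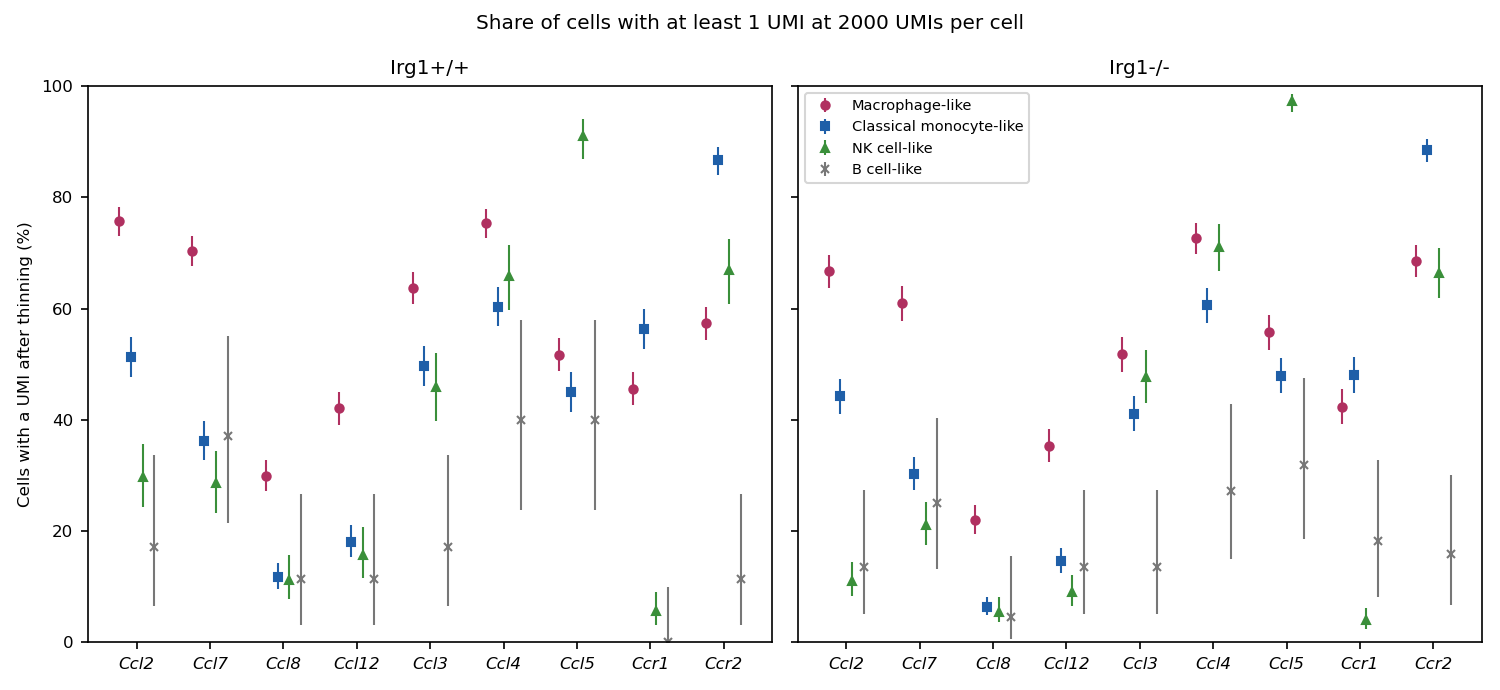
Share of cells with at least 1 UMI (percent) after thinning to 2000 UMIs per cell, for each gene in macrophage-like, classical monocyte-like, NK cell-like and B cell-like cells of each library; bars are 95% Clopper-Pearson intervals. Ccl2 reaches 75.7% and 66.7% of macrophage-like cells against 17.1% and 13.6% of B cell-like cells, while Ccl8 in classical monocyte-like cells, at 11.8% and 6.4%, lies near the 11.4% and 4.5% of B cell-like cells.

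Macrophage-like cells were not uniform, and their make-up differed between the libraries. They were split by the highest of 4 marker scores into Lyve1+ cells (172 and 254), Mrc1+ cells (355 and 164), Vegfa+ cells (390 and 250) and MHC class II cells (417 and 477), with 474 of 2479 cells within 0.25 SD units of score of another state. Ccl2 was highest in the Lyve1+ and Mrc1+ states of the Irg1+/+ library, at 2718 and 2564 CPM, and lowest in its MHC class II state, at 1253. In the library labelled Irg1-/- Mrc1+ cells were highest at 1793, followed by Lyve1+ at 1459, Vegfa+ at 1025 and MHC class II at 978. Ccl2 was thus lower in the library labelled Irg1-/- within each of the 4 states, with log2 ratios of -0.90 (Lyve1+), -0.78 (Vegfa+), -0.52 (Mrc1+) and -0.36 (MHC class II), and no interval reached 0.

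Ccl8 did not follow Ccl2 in every state. It stood at 1106 and 899.8 CPM in Lyve1+ cells and at 1308 and 847 in Mrc1+ cells. In MHC class II cells it read higher in the library labelled Irg1-/-, at 274 against 320.5, a log2 ratio of 0.23 (0.11 to 0.34). These levels rest on 970 and 1440 UMIs, and the interval leaves out spread between cells. Among macrophage-like cells of any state the highest count of Ccl8 in a cell was 640 and 289 UMIs. Whether a few cells set the direction in MHC class II cells was not tested. Ccl12 in the MHC class II state was at 381.5 and 408 CPM, with an interval of the log2 ratio that includes 0. Mrc1+ cells were the deepest state, with medians of 12281 and 10368 UMIs per cell, and the part of depth or cell doublets in these values was not tested. Without the top 5% of cells by UMIs the log2 ratio of the summed ligands in macrophage-like cells was -0.42.

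**Figure D3:**
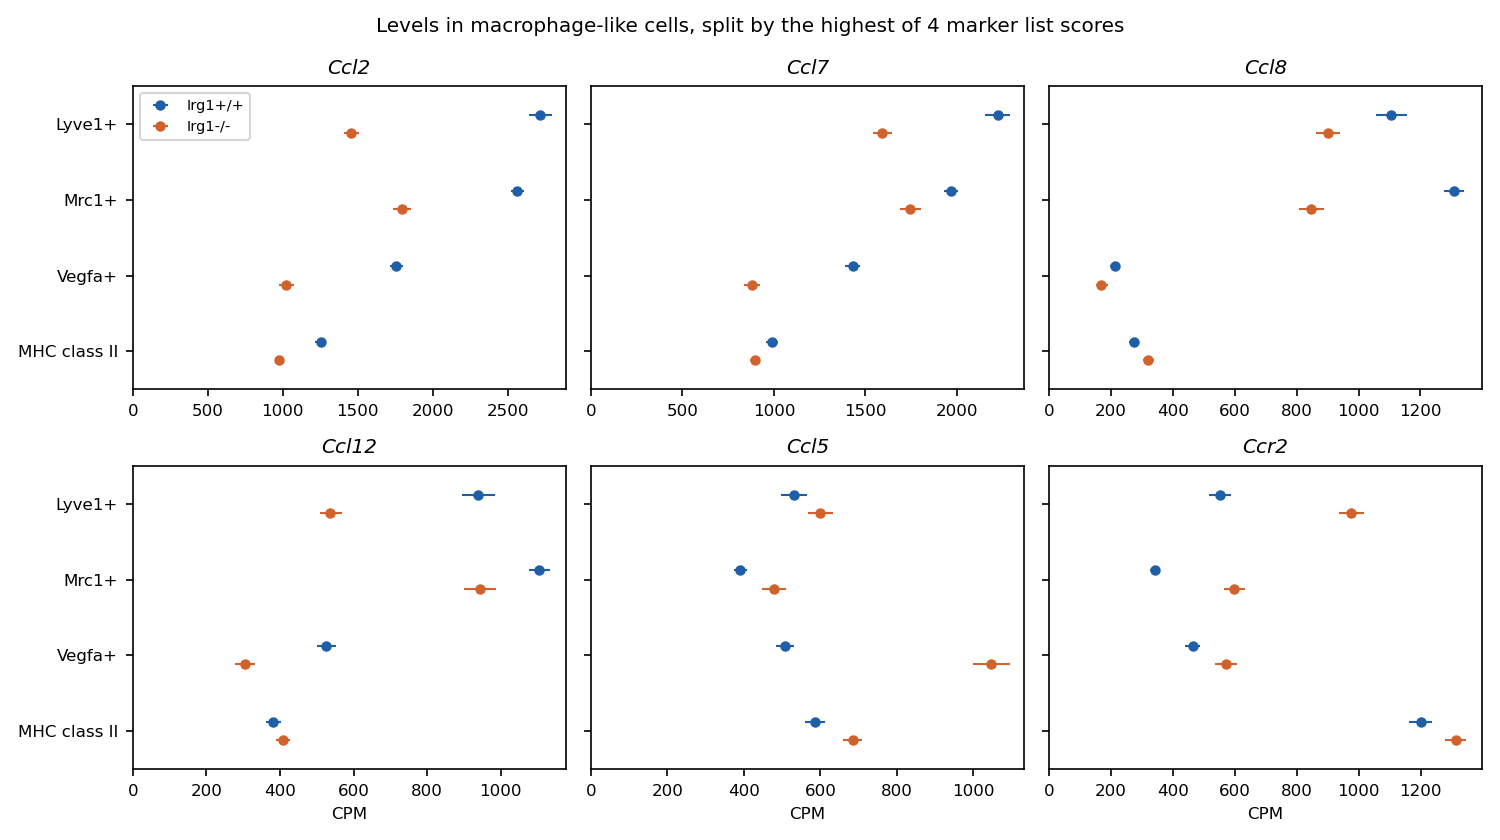
Levels (CPM) of Ccl2, Ccl7, Ccl8, Ccl12, Ccl5 and Ccr2 in the 4 states of macrophage-like cells, Irg1+/+ library in blue and library labelled Irg1-/- in orange, with 95% Poisson intervals. The 4 monocyte chemoattractant ligands are higher in the Lyve1+ and Mrc1+ states, Ccr2 is highest in the MHC class II state at 1199 and 1313, and Ccl5 in Vegfa+ cells reads 507 and 1047.

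Classical monocyte-like cells were split at the median score of 8 interferon-induced genes, with 337 and 630 cells above the cut and 504 and 464 below it. In interferon-high cells Ccl2 stood at 972 and 644.5 CPM, a log2 ratio of -0.59 (-0.68 to -0.51), and in interferon-low cells at 666.5 and 615, a log2 ratio of -0.12 (-0.22 to -0.01). Ccl12 ran the other way, with a log2 ratio of -0.09 (-0.28 to 0.10) in interferon-high cells, at 181 and 169.7 CPM, and -0.60 (-0.86 to -0.34) in interferon-low cells, at 139 and 92.2. Ccl5 was at 491 and 559.9 CPM in interferon-high and 391 and 654.5 in interferon-low cells, log2 ratios of 0.19 (0.08 to 0.30) and 0.74 (0.62 to 0.87). Of 1935 cells, 323 lay within 0.05 of the cut, and the differences between these ratios were not tested.

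Ccl3, a ligand of Ccr1, and Ccl4, its neighbor in the gene cluster, were highest in neutrophil-like cells. Ccl3 stood there at 6915 CPM in the Irg1+/+ library and 8847 in the library labelled Irg1-/-, and Ccl4 at 4208 and 3882. These values rest on 59 and 166 cells of low depth, with medians of 1781 and 1865.5 UMIs. The log2 ratio of Ccl3 was 0.36 (0.25 to 0.47) in all neutrophil-like cells and -0.14 in the 19 and 64 of them deep enough for thinning, so its direction was not stable. The ratio of Ccl4 to Ccl3 UMIs was 0.609 and 0.439 in neutrophil-like cells and 1.66 and 2.20 in macrophage-like cells. Plasmacytoid dendritic cell-like cells were the next type for Ccl4, at 1838 and 2788 CPM, a log2 ratio of 0.60 (0.45 to 0.75), with Ccl3 at only 254 and 161.

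Macrophage-like cells carried 45.6% and 32.0% of all Ccl3 UMIs of their libraries. Their Ccl3 level was 850.4 and 609.7 CPM, a log2 ratio of -0.48 (-0.52 to -0.44). Their Ccl4 level moved less between the libraries, at 1415 and 1339, a log2 ratio of -0.08 (-0.11 to -0.05). Summed, both genes had a log2 ratio of -0.22 (-0.24 to -0.19), and of -0.84 with the B cell-like level, from 63 and 167 UMIs, taken off. Ccl3 in classical monocyte-like cells was at 572 and 463 and Ccl4 at 1075 and 959.9 CPM. NK cell-like cells, which release Ccl4 when activated, held 1068 and 1287 CPM of it. B cell-like cells were no clean floor for this pair, since Ccl4 there was at 276 and 659.9 CPM from 43 and 121 UMIs, while the thinned share of cells with Ccl4 was 40.0% and 27.3%. The same B cell-like cells held 3 and 17 UMIs of Ccr1 and 1 and 12 of Acod1.

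Ccl5, a ligand of Ccr1 and Ccr3 made by cytotoxic lymphocytes, was highest in NK cell-like and mature dendritic cell-like cells. NK cell-like cells held 5228 CPM in the Irg1+/+ library and 7182 in the library labelled Irg1-/-, a log2 ratio of 0.46 (0.41 to 0.50). Nearly all NK cell-like cells carried it, with thinned shares of 91.0% (86.9 to 94.1) and 97.3% (95.4 to 98.6), against 40.0% and 31.8% of B cell-like cells. Mature dendritic cell-like cells held 5337 and 5780.0 CPM, a log2 ratio of 0.11 (0.08 to 0.15). In the Irg1+/+ library the intervals of these types overlapped, and in the library labelled Irg1-/- NK cell-like cells lay above.

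T cell-like cells went the other way for Ccl5, at 1809.8 and 1412 CPM, a log2 ratio of -0.36 (-0.40 to -0.32). CD8 T cell-like cells stood at 2445 and 1529, a log2 ratio of -0.68 (-0.73 to -0.63), and CD4 T cell-like cells at 1565 and 1589. Gamma delta T cell-like cells held 1587 and 2996 CPM, from 145 and 372 UMIs. In macrophage-like cells Ccl5 was higher in the library labelled Irg1-/-, at 486 and 689, a log2 ratio of 0.50 (0.46 to 0.55), opposite in sign to the monocyte chemoattractant ligands of the same cells. These levels were only 1.72-fold (1.28 to 2.37) and 2.14-fold (1.66 to 2.82) those of B cell-like cells, and 1 macrophage-like cell of the library labelled Irg1-/- held 459 of the 7233 UMIs. The gap was widest in Vegfa+ cells, at 507 and 1047, a log2 ratio of 1.05 (0.95 to 1.14). Classical monocyte-like cells held 436 and 594 CPM of Ccl5, a log2 ratio of 0.44 (0.36 to 0.53), and these levels were 1.54-fold and 1.85-fold those of B cell-like cells.

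The receptors differed in the type where each was highest, though many cells held both. Among thinned classical monocyte-like cells with Ccr1, 88.3% and 89.1% also had Ccr2, near the 84.4% and 88.1% of those without Ccr1. In thinned neutrophil-like cells with Ccr1 the shares with Ccr2 were 6.7% and 32.1%, from 15 and 56 cells. Ccr1 was highest in neutrophil-like cells, at 1299 and 1666 CPM, followed by classical monocyte-like cells at 590.6 and 439.8 and macrophage-like cells at 336 and 303, and these 3 levels did not overlap in either library. Its log2 ratio was -0.43 (-0.50 to -0.35) in classical monocyte-like cells, with thinned shares of 56.3% and 48.0%, and -0.15 (-0.22 to -0.08) in macrophage-like cells. NK cell-like cells, at 27.9 and 20.6 CPM and thinned shares of 5.6% and 4.0%, give the floor.

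Ccr2 was highest in classical monocyte-like cells, at 1666 CPM in the Irg1+/+ library and 1882 in the library labelled Irg1-/-, a log2 ratio of 0.18 (0.13 to 0.22). Its thinned share there was 86.6% (84.0 to 89.0) and 88.6% (86.4 to 90.5), intervals that overlapped. NK cell-like cells were next in the Irg1+/+ library, at 810.2 CPM, and stood at 835 in the other. In macrophage-like cells Ccr2 was at 617 and 982, a log2 ratio of 0.67 (0.63 to 0.71), and in nonclassical monocyte-like cells at 549 and 951, a log2 ratio of 0.79 (0.53 to 1.06). Macrophage-like cells had mean scores of 0.238 and 0.299 on the classical monocyte marker list. The part of this difference in their Ccr2 and Ccl2 ratios was not tested. Type 1 and type 2 dendritic cell-like cells stood at 415 and 614.5 and at 637 and 875 CPM. Mature dendritic cell-like cells, which carry Ccr7 in its place, were the lowest of the 11 compared types, at 61.8 and 97.4, with intervals that overlapped those of B cell-like cells at 70.7 and 109. Within macrophage-like cells Ccr2 was highest in the MHC class II state, at 1199 and 1313, a log2 ratio of 0.13 (0.07 to 0.19), and lowest in Mrc1+ cells of the Irg1+/+ library, at 340.4. The log2 ratio was larger in the Lyve1+ and Mrc1+ states, at 0.82 and 0.81, where the level was 551.5 and 977 in the former. The state with the highest Ccr2 thus had the lowest Ccl2 value in both libraries. In the library labelled Irg1-/- the Vegfa+ state was close to it for Ccl2, at 1025 against 978 CPM, and this difference was not tested.

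**Figure D4:**
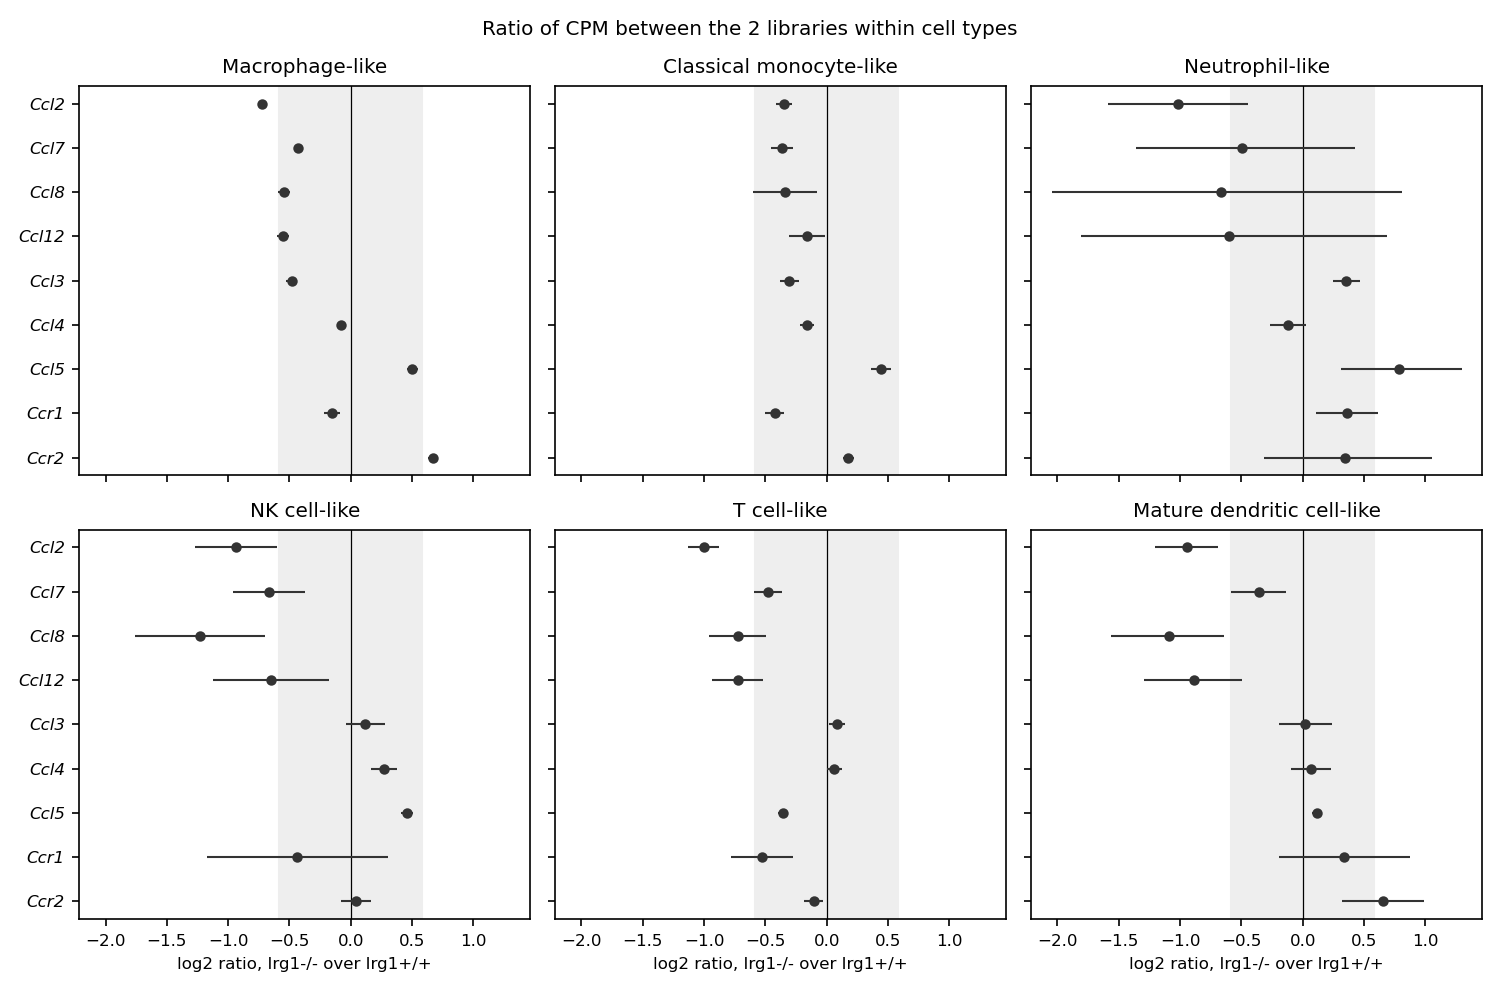
log2 ratio of CPM, library labelled Irg1-/- over Irg1+/+ library, for the 9 genes in 6 cell types; bars are 95% conditional binomial intervals of counting error and the grey band marks changes under 1.5-fold. In macrophage-like cells Ccl2 lies below the band at -0.73 and Ccr2 above it at 0.67 (0.53, inside it, after thinning), and all 9 genes lie within it in classical monocyte-like cells.

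The sizes of these ratios were set against all genes with at least 20 UMIs. The members held far more UMIs than that in macrophage-like and classical monocyte-like cells. No share among genes of like abundance was computed. In macrophage-like cells 1 of the 9 members was past 1.5-fold lower (Ccl2), against 5.67% of the 11860 genes with at least 20 UMIs. Past 1.5-fold higher there was likewise 1 (Ccr2), against 5.76% of genes. Neither was firm: Ccr2 was under 1.5-fold after thinning (log2 ratio 0.53) and as the mean over cells (0.50), and Ccl2 was under it without the top 5% of cells by UMIs (-0.53). The median log2 ratio of the members was -0.43, beside -0.03 for all these genes. No member in classical monocyte-like cells passed 1.5-fold in either direction, against 6.17% of 10441 genes higher and 5.72% lower, and the median of the members was -0.31 beside -0.01. Within the macrophage states, Lyve1+ cells had 2 members past 1.5-fold lower (Ccl2 and Ccl12), against 8.23% of genes, and 1 higher (Ccr2), against 8.21%. Mrc1+ cells had 2 lower (Ccl8 and Ccl3), against 7.61%, and 1 higher (Ccr2), against 6.13%. Vegfa+ cells had 3 lower (Ccl2, Ccl7 and Ccl12), against 7.42%, and 1 higher (Ccl5), against 6.61%. The MHC class II state had none, against 5.13% lower and 4.57% higher.

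A list of other chemokines and receptors, mostly of the CC family but with Cx3cl1 and its receptor Cx3cr1, gave the surroundings of these genes. Of 14 listed ligands, 9 had at least 20 UMIs in macrophage-like cells, 4 of them past 1.5-fold lower and 2 higher in the library labelled Irg1-/- (all genes: 5.67% and 5.76%), with a median log2 ratio of -0.56. The lower ones were Ccl17, Ccl22, Ccl24 and, from only 24 and 5 UMIs, Cx3cl1, and the higher ones Ccl1 and, from 9 and 11 UMIs, Ccl27a; Cx3cl1 and Ccl27a are named after their values were seen. Ccl6, a myeloid chemokine, stood at 3371 and 2279 CPM (log2 ratio -0.56), and Ccl9, a ligand of Ccr1, at 1822 and 1346 (-0.44). Ccl24, a ligand of Ccr3 that attracts eosinophils, was at 65.8 and 24.6 CPM, a log2 ratio of -1.42 (-1.62 to -1.22). The Ccr4 ligands Ccl22 and Ccl17 were at 89.5 and 56.1 and at 10.9 and 6.00, with log2 ratios of -0.67 and -0.86. These levels were near those of NK cell-like cells, at 100.5 and 49.4 for Ccl22 and 11.2 and 3.89 for Ccl17, while mature dendritic cell-like cells held 4217 and 2198 CPM of Ccl22 and 314 and 140.0 of Ccl17. Ccl1, a ligand of Ccr8, was at 6.22 and 11.5 (0.89) in macrophage-like cells and at 59.5 and 9.44 in NK cell-like cells.

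Of 13 listed receptors, 8 had at least 20 UMIs in macrophage-like cells, with a median log2 ratio of 0.10. None was past 1.5-fold higher and 2 were lower (all genes: 5.76% and 5.67%). The lower ones, named after their values were seen, were Ccr4 with 26 and 5 UMIs and Ccr8 with 37 and 18. Ccrl2, an atypical receptor that binds chemerin, stood at 296 and 274 CPM (log2 ratio -0.11). Among classical monocyte-like cells 8 of the ligands and 6 of the receptors had 20 UMIs or more. Of the ligands 3 were past 1.5-fold lower and 1 higher, and of the receptors 2 were higher and none lower, beside 5.72% of all genes lower and 6.17% higher. Among these, also named after their values were seen, were Ccl25 (19 and 17 UMIs, lower), Ccl11 (0 and 21, higher) and Ccr9 (14 and 40, higher). Ccl6 was at 1734 and 1699 CPM there, Ccl9 at 1439 and 1224 and Ccrl2 at 281 and 269. Ccl17 was at 25.1 and 8.46, a log2 ratio of -1.57 (-2.08 to -1.07), Ccl24 at 60.3 and 30.1, and Ccr7, the receptor that guides dendritic cells to lymph nodes, at 25.3 and 51.6, a log2 ratio of 1.03 (0.71 to 1.36). NK cell-like cells held 40.0 and 29.99 CPM of Ccr7 and mature dendritic cell-like cells 2255 and 2419.9, so the monocyte value lay below that of NK cell-like cells in the Irg1+/+ library and above it in the library labelled Irg1-/-.

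The genes whose levels ran most closely with a member were found by Pearson r of log2(CPM + 1) over 22 points, 11 types in each library, among 11709 genes. These points share libraries and are given as a description. For Ccl2 they were Lpl (0.96), Cndp2 (0.91) and Mmp12 (0.91), and for Ccl8 Pf4, Stab1 and C1qc (each 0.91), of which C1qc was a marker used in the gate and Stab1 one used for the Mrc1+ state. For Ccl4 they were Ssc4d (0.88), Gm13822 (0.85) and Rgcc (0.83). For Ccl5 they were Heatr9 (0.97), Yes1 (0.96) and Serpinb9 (0.95). Heatr9 is the neighbor of Ccl5 on the same strand, 3.6 kb away, with 149 UMIs in all against 100829 for Ccl5. Ccr1 ran with Lilr4b (0.95), Gla (0.94) and Ier3 (0.94), and Ccr2 with Otulinl (0.88), Atp1b3 (0.88) and Pycard (0.87).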

How the data were processed

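Single-cell libraries of sorted Cd45+ cells were analysed, 1 pooled library of 3 mice per genotype. The deposited matrices hold UMI counts per gene and cell, which the authors made with fastp, UMI-tools and STAR on the mouse genome; the submitters' processing notes give GRCm38. The authors' normalization and clusters were not used here. The filter in the study's methods was applied again, more than 200 genes detected and a mitochondrial share below 10%, which removed 124 and 102 cells, and the 13 mitochondrial genes were left out of totals. Totals were 42105693 and 35307041 UMIs. Doublets were kept; a version without the top 5% of cells by UMIs and one without mixed cells (a score of 0.25 or more on a list of another lineage) were run.

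Each cell was scored on 14 marker lists (mean of log1p counts per 10000 UMIs over each marker's 75th percentile, capped at 1); a lead of 0.05 over the next list and 3 detected markers were required, and 1194 and 997 cells stayed outside all gates. Counts were summed per library and type and given as CPM. Ratios needed 20 cells in each library. No test was possible with 1 library per genotype. TMM factors came from edgeR 4.0.16 in R 4.3.3, other steps from Python 3.11.15, numpy 2.4.6 and scipy 1.17.1. Only the ratio and its interval were run on simulated data. Those were Poisson counts, for which the interval holds by construction. Gating, thinning, TMM factors and spread between cells were not simulated. Members and lists were chosen with earlier results of these data known. Named were all members, Acod1, the 4 most abundant of 27 other family genes and those past 1.5-fold at 100 UMIs or more in macrophage-like or classical monocyte-like cells, and the 3 genes most like each of 6 members; 1 gene and 1 sequence that these rules name are not reported here. Positions came from GENCODE M21.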

Additional observations from a re-analysis of the deposited data

Results flagged for a closer look

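For 5 members the log2 ratio between the libraries had opposite signs in different cell types. Each had a counting interval that left out 0 in both types. The difference between types was not tested, and no share of all genes was set beside this number. Such intervals were common among the members: in macrophage-like cells 2 lay above 0 and 7 below, again without a share of all genes. These counts are therefore not read as a trait of the members. Ccl3 was at 0.36 in neutrophil-like and -0.66 in plasmacytoid dendritic cell-like cells, but the neutrophil-like value was -0.14 after thinning. Its level in plasmacytoid dendritic cell-like cells was 1.98-fold and 0.643-fold that of B cell-like cells. Ccl4 was at 1.26 in B cell-like and -0.73 in nonclassical monocyte-like cells. Ccl5 was at 0.79 in neutrophil-like and -0.36 in T cell-like cells. Its level in neutrophil-like cells of the Irg1+/+ library, from 44 UMIs, was 1.21-fold (0.778 to 1.88) that of B cell-like cells. Ccr1 was at 0.36 in neutrophil-like and -0.52 in T cell-like cells. Its T cell-like levels were 47.0 and 32.7 CPM, beside 27.9 and 20.6 in NK cell-like cells. Ccr2 was at 0.79 in nonclassical monocyte-like and -0.11 in T cell-like cells. Without mixed cells the T cell-like values turned to 0.33 for Ccr1 and 0.062 for Ccr2.

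Signal also appeared in cell types with too few cells to be compared. Eosinophil-like cells (14 and 31) held 1091 and 1357 CPM of Ccl3, from 15 and 52 UMIs, and 291 and 522 of Ccr1, from 4 and 20 UMIs. Mast cell-like cells (4 and 6) held 3058 and 1549 CPM of Ccl2 and 4244 and 2110.0 of Ccl7, from 93 and 79 UMIs of the latter, above macrophage-like cells of the same library.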

How the results depend on the processing

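None of the 6 ratios that carry the comparisons reversed under any alternative. The monocyte chemoattractant sum in macrophage-like cells (-0.58) was -0.55 with TMM factors, -0.56 as the mean over cells, -0.50 after thinning, -0.61 under 5% mitochondrial UMIs, -0.42 without the top 5% of cells by UMIs, -0.53 without mixed cells, -0.53 with the stricter gate and -0.56 less the B cell-like level. In classical monocyte-like cells (-0.33) it was -0.44 with the stricter gate and -0.14 less the B cell-like level. Ccl3 and Ccl4 in macrophage-like cells (-0.22) gave -0.19 with TMM factors, -0.29 as the mean over cells, -0.19 after thinning and -0.84 less the B cell-like level, which rests on 63 and 167 UMIs. Ccl5 in NK cell-like cells (0.46) was 0.40 without mixed cells. In classical monocyte-like cells Ccr2 (0.18) was 0.24 after thinning and 0.23 with the stricter gate, and Ccr1 (-0.43) was -0.33 in both of these. Less the B cell-like level, which for Ccr1 rests on only 3 and 17 UMIs, Ccr1 was -0.72.

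Among single genes 13 values changed sign, and the cause was not tested. Less the B cell-like level, Ccl8 and Ccl12 in classical monocyte-like cells became 0.22 and 0.081, Ccl4 in NK cell-like cells -0.33 and Ccl3 in T cell-like cells -0.43. Ccl3 in neutrophil-like cells was -0.14 after thinning. In T cell-like cells Ccl3 was -0.21 as the mean over cells, -0.092 after thinning and -0.32 without the top 5%, Ccl4 was -0.088, -0.17 and -0.14 under the same settings, and without mixed cells Ccr1 was 0.33 and Ccr2 0.062. With every gene that had a UMI, 2826 instead of 683 genes were past 1.5-fold higher and 2771 instead of 672 lower in macrophage-like cells, and 2833 instead of 644 and 2414 instead of 597 in classical monocyte-like cells. Taking off the B cell-like level, gating with 2 markers and leaving out the 36 shared barcodes were chosen after seeing the data; the last moved 1 value, Ccl8 in macrophage-like cells of the library labelled Irg1-/-, to 503 CPM. No paired analysis was possible because each genotype has 1 library. Types with few cells, above all B cell-like and neutrophil-like cells, limit the floor and the ratios that rest on them.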
